A study of Mus musculus with 4 samples.

Results

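The 37 genes described here code for the proteins that take up glucose, break it down to pyruvate and lactate, and feed the pentose phosphate pathway. They were chosen by name from 27179 genes in the table, all 37 were found, and all 37 passed the filter on low read numbers, as did 14234 genes in all. Their RNA was sequenced in LTi (lymphoid tissue inducer) cells, lymphotoxin-producing innate lymphocytes taken from the small intestinal lamina propria of C57BL/6 mice by cell sorting. The gate held live, lineage-negative cells positive for CD127 and CCR6 and negative for NK1.1, NKp46 and KLRG1. The study has 4 libraries, a pair from Gata3+/+ mice (control, n = 2) and a pair from Gata3fl/fl-VavCre mice, whose Gata3 alleles are floxed and which carry the VavCre transgene (here VavCre, n = 2). Vav regulatory elements drive Cre in blood-forming cells and their progeny, so the deletion is not limited to LTi cells, and the control mice are labelled by their wild-type Gata3 alleles only. The labels give neither the age of the mice nor whether the replicates came from separate animals, so p-values measure only the spread between these libraries, which may be technical.

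Glucose enters lymphocytes through facilitative transporters and is trapped by hexokinases, which add a phosphate group. Glycolysis then turns it into pyruvate, which is either reduced to lactate and exported with a proton or passed to the mitochondria, and pyruvate dehydrogenase kinases restrain that last step. The pentose phosphate pathway branches off after the hexokinase step and yields NADPH and ribose. Several steps are served by isoenzymes from separate genes, and activated lymphocytes and cells short of oxygen are known for high levels of Hk2, Slc2a1, Ldha and Pdk1.

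Depth was 14294708 and 12670034 reads for control replicates 1 and 2, and 24315878 and 23973995 reads for VavCre replicates 1 and 2, and paired values below follow this order of replicates. Gata3, the floxed gene, was read at 84.3 and 50.7 RPKM (reads per kilobase of gene, scaled to library depth) in control cells, against 34.5 and 23.3 RPKM in VavCre cells, a log2 difference of −1.18 ± 0.36 (SE) that did not pass the test (adjusted p = 0.0903 in limma, and 0.0791 after the median-ratio scaling described below). The whole-gene value can hold transcripts of exons that the deletion leaves in place. All 13 LTi markers had reads in every library, and none was called. Markers of 4 other cell types moved with genotype. Of 14 B and plasma cell markers 13 rose, with a summed level of 297 and 479 RPKM in control cells, against 4081 and 2289 RPKM with VavCre. Of 15 epithelial markers 11 rose, from 754 and 444 to 3582 and 4787 RPKM. Of 12 T cell markers 4 rose (206 and 126 against 706 and 249 RPKM), and of 9 tested myeloid markers 2 rose (35.3 and 49.0 against 85.0 and 216 RPKM over all 13 listed). In control replicate 1 the B cell marker Cr2, the epithelial Lgr5 and the myeloid Fcgr1, S100a8, S100a9 and Mpo were at 0, and no other marker of these 4 cell types was at 0 in a control library. After that scaling 1 B cell, 6 epithelial, 1 T cell and 1 myeloid marker were called higher. The summed LTi markers measured 3173 and 2291 RPKM in control cells, against 1905 and 2268 RPKM in VavCre cells, without overlap. The part that these shifts have in the results on the 37 genes was not tested, and in bulk RNA fewer cells of a type and less RNA per cell cannot be told apart.

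**Figure D1:**
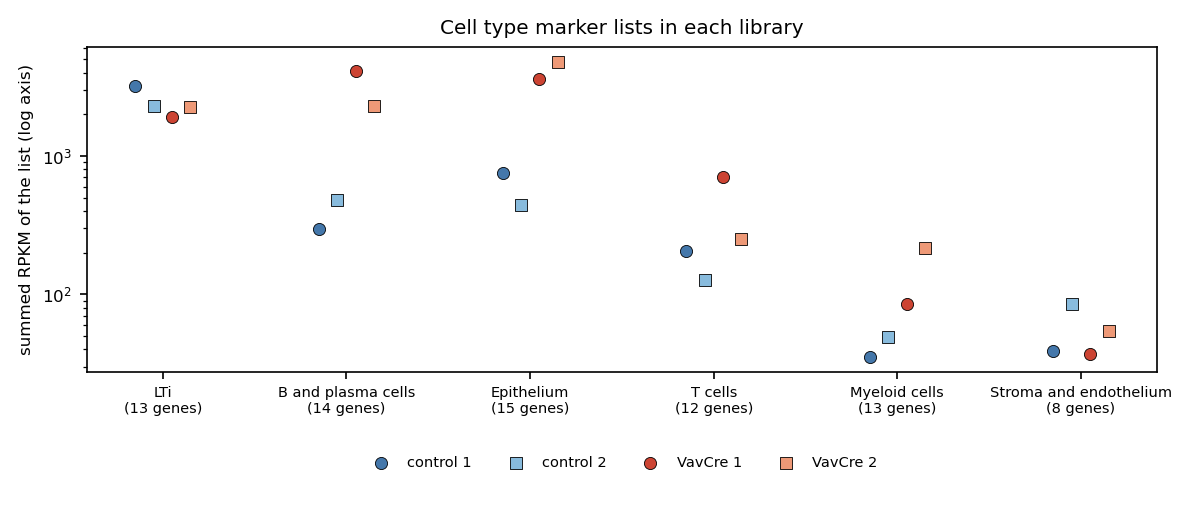
Summed RPKM (log axis) of the marker genes of 6 cell types, fixed as lists, in each of the 4 libraries. The B and plasma cell and epithelial sums are higher in both VavCre libraries than in both control libraries, and the LTi sums are lower in both.

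On the deposited scale the median tested gene lay 0.43 log2 units higher in VavCre than in control libraries, and the median of the 37 genes lay 0.52 higher. Values were therefore also read after median-ratio scaling, which sets the libraries to a common typical gene. There the median of all genes was 0.05 and that of the 37 genes 0.11. A gene is called where limma's p-value, adjusted by Benjamini-Hochberg over all tested genes, is under 0.05. On the deposited scale 4 of the 37 genes were called higher, against 8.33% of all tested genes, and 2 were called lower, against 0.688%. After median-ratio scaling none was called higher, against 0.611% of all genes, and the same 2, Hk2 and Hk3, were called lower, against 0.436%. At an unadjusted p under 0.05, 10 were higher and 2 lower on the deposited scale, where 4346 of all 14234 tested genes passed in either direction. After scaling 4 were higher and 5 lower, where 3218 of all tested genes passed in either direction. Without overlap between genotypes, 25 of 37 were higher in VavCre on the deposited scale, where 54.0% of all genes were, and 8 after scaling, where 30.1% were. Without overlap, 5 (all genes 7.59%) and after scaling 9 (all genes 25.2%) were lower. The share of the 37 genes called higher, 10.8%, was near that of all genes, and both genes called lower were hexokinases.

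**Figure D2:**
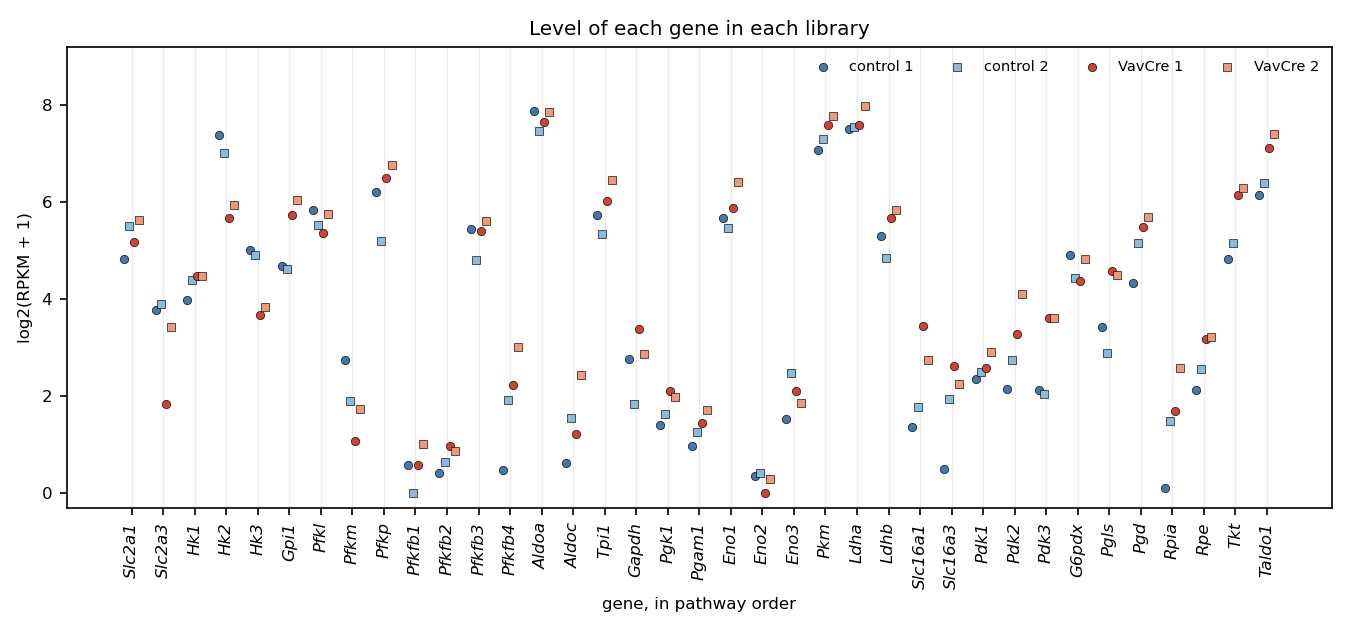
Level of each of the 37 genes, as log2(RPKM + 1), in the 2 control (blue) and 2 VavCre (red) libraries, in pathway order. Aldoa, Ldha and Pkm are among the highest in all 4 libraries, and Hk2 and Hk3 are the hexokinases whose VavCre points lie below both control points.

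Slc2a1, the gene of the GLUT1 glucose transporter, was read at 27.3 and 44.8 RPKM in control cells and at 35.1 and 48.7 RPKM with VavCre. The genotypes overlapped, and the log2 difference of 0.24 ± 0.34 did not pass (adjusted p = 0.681 in limma) and was −0.34 after median-ratio scaling. Slc2a3, which codes for the high-affinity transporter GLUT3, measured 12.8 and 13.8 RPKM in control cells, against 2.57 and 9.76 RPKM in VavCre cells. The genotypes did not overlap, but the VavCre libraries lay far apart, and the log2 difference of −1.20 ± 0.54 had an adjusted p of 0.190 in limma (−1.72 and 0.148 after scaling).

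Hk2 and Hk3 fell on both scales, while Hk1 did not. Hk2 (GRCm38.p6, chr6:82725025-82774454) codes for the inducible hexokinase II, which can dock on the outer mitochondrial membrane. It was read at 166 and 129 RPKM in control cells and at 50.2 and 60.8 RPKM with VavCre. In control cells only Aldoa and Ldha had a higher mean level per length among the 37 genes, and in VavCre cells Hk2 ranked 10. Its mean fell 2.65-fold, from 147 ± 25.9 to 55.5 ± 7.48 RPKM (SD, n = 2 each). The log2 difference was −1.39 ± 0.28 (adjusted p = 0.0388 in limma), and −1.97 ± 0.21 after median-ratio scaling (adjusted p = 0.0413 in limma). Hk3 (chr13:55005985-55021475), whose product hexokinase III lacks the mitochondrial docking end and is best known from myeloid cells, measured 31.1 and 29.0 RPKM in control cells, against 11.7 and 13.3 RPKM in VavCre cells. The replicates lay close to each other, and the genotypes did not overlap. The log2 difference was −1.20 ± 0.26 (adjusted p = 0.0455 in limma) and −1.76 ± 0.21 after scaling (adjusted p = 0.0480 in limma). The summed myeloid markers were 35.3 and 49.0 RPKM in control cells, against 85.0 and 216 RPKM with VavCre, and their part in the Hk3 values was not tested. Hk1, the constitutive hexokinase, stood at 14.7 and 19.9 RPKM in control and at 21.2 RPKM in both VavCre libraries. It did not pass on either scale (log2 difference 0.29 on the deposited scale and −0.27 after scaling). The summed level of the 3 hexokinase genes was 211 and 178 RPKM in control cells, against 83.1 and 95.2 RPKM with VavCre. Leaving out any 1 of the 4 libraries, which leaves a genotype with 1 library assumed to vary like the other, ended both calls on both scales, with Hk2 between −2.07 and −1.21 and Hk3 between −1.79 and −1.12. Both had the same direction in all 15 alternative settings. In those with 1 library left out this was fixed in advance, since neither gene overlapped between genotypes on either scale. Hk2 passed the threshold in only 3 of the 15 settings and Hk3 in 2. Testing without the filter, a replicate block and limma-voom on the deposited scale (adjusted p = 0.0520 and 0.0583) ended both calls. A pseudocount of 0.1 ended that of Hk3 (adjusted p = 0.0544 in limma).

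**Figure D3:**
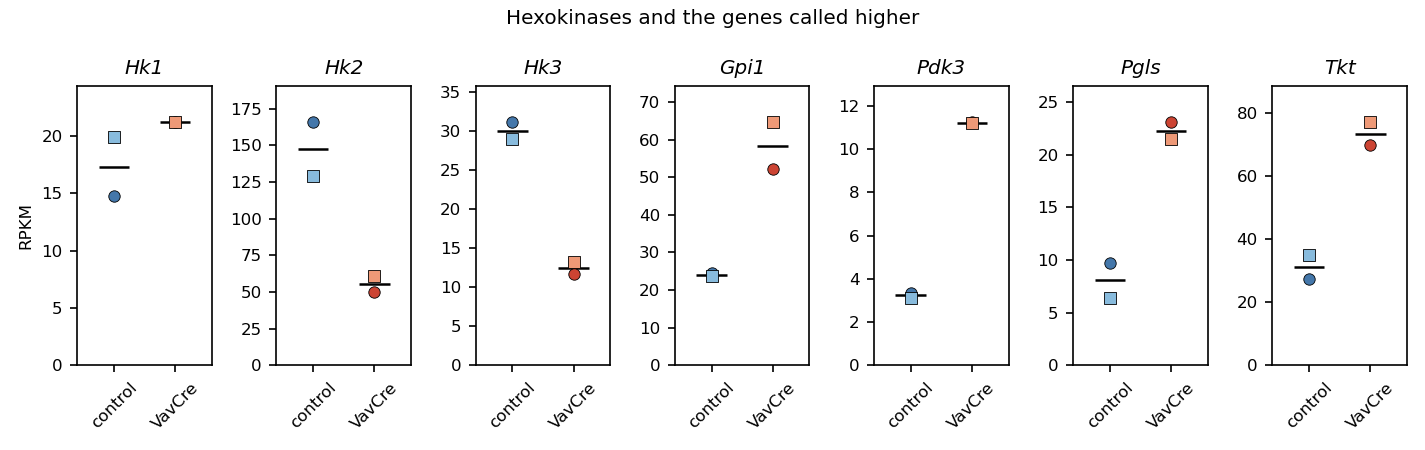
RPKM of the 3 hexokinase genes and of the 4 genes called higher on the deposited scale, with 1 point per library (circle for replicate 1, square for replicate 2) and a bar at the genotype mean; each panel has its own axis from 0. Hk2 and Hk3 are lower in both VavCre libraries, and Gpi1, Pdk3, Pgls and Tkt are higher in both.

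The promoter windows of the hexokinase genes are shown because both genes called lower code for hexokinases. Each runs from 250 bases before to 50 after a transcription start in RefSeq (GRCm38.p6), 5′ to 3′ on the gene's strand, with motif matches on either strand in capitals. The first motif searched was ACGTG, the core of the hypoxia response element. The next was CACGTG, the E-box bound by MYC, which contains the first. The last was AGATAA, a form of the motif bound by factors such as Gata3, and other forms were not searched. Hk1 has a further start not shown.
Hk1 (chr10:62340372-62340671, minus strand): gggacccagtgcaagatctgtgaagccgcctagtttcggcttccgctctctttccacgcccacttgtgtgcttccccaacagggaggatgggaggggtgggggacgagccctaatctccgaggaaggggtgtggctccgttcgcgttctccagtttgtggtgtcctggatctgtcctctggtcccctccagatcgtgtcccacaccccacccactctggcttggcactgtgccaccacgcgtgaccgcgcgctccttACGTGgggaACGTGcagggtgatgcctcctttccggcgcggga
Hk2 (chr6:82774405-82774704, minus strand): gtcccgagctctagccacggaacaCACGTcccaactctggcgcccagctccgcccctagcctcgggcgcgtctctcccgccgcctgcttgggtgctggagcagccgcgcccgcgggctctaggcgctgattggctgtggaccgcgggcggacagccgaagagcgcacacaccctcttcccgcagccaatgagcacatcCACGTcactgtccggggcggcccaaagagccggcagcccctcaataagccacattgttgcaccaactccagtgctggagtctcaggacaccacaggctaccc
Hk3 (chr13:55021336-55021635, minus strand): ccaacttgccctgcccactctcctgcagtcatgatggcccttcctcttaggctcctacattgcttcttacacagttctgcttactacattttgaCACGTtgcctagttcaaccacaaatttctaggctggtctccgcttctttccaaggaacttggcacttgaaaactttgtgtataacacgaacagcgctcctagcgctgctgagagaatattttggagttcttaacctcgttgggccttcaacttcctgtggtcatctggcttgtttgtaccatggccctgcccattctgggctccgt
The Hk2 window holds ACGTG, read on the opposite strand, from 226 and from 52 bases before the start, and the Hk3 window holds it once, on the opposite strand, 156 bases before. The Hk1 window shown holds ACGTG on the gene's strand at bases 8 and 17, counted from the start site as base 1. None of the 3 holds AGATAA or CACGTG. Over the members, 19 of the 36 genes with a promoter in the table have ACGTG in at least 1 window (23 of 56 windows, 41.1%, some of which overlap), against 19.6% of all 32851 windows. The median GC content was 60.2% in the members' windows and 52.7% in all windows, and ACGTG contains a CG. CACGTG was in 6 of the 56 windows, 10.7%, against 7.15% of all, and AGATAA in 7, 12.5%, against 11.2%. A match is a description of the letters and not of binding.

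Gpi1 (chr7:34201327-34230336), which codes for the isomerase of the next step, was called higher on the deposited scale only. It was read at 24.5 and 23.7 RPKM in control cells and at 52.1 and 64.6 RPKM with VavCre, and the genotypes did not overlap on either scale. The log2 difference was 1.23 ± 0.27 (adjusted p = 0.0433 in limma) and 0.66 ± 0.21 after median-ratio scaling (adjusted p = 0.161 in limma). The main phosphofructokinases of these cells were Pfkp and Pfkl, the platelet and liver forms. Pfkp measured 72.9 and 35.6 RPKM in control cells, against 89.9 and 108 RPKM in VavCre cells, and control replicate 2 lay far below the other 3. Pfkl was read at 56.0 and 45.4 RPKM in control cells and at 40.5 and 52.7 RPKM with VavCre and overlapped on the deposited scale. The log2 differences were 0.94 ± 0.39 for Pfkp (adjusted p = 0.166) and −0.12 ± 0.28 for Pfkl (adjusted p = 0.803 in limma). After scaling Pfkp lay at 0.36 (adjusted p = 0.576 in limma) and overlapped. Pfkl lay at −0.70 ± 0.22 after scaling (adjusted p = 0.153 in limma), without overlap. Pfkm, the muscle form, was low throughout, at 5.73 and 2.72 RPKM in control cells, against 1.09 and 2.32 RPKM with VavCre. Pfkfb3, the most abundant of the 4 bifunctional enzymes that set the level of the phosphofructokinase activator, measured 42.4 and 27.2 RPKM in control cells, against 41.3 and 47.6 RPKM in VavCre cells (log2 difference 0.38 ± 0.31, adjusted p = 0.457 in limma). Pfkfb1, Pfkfb2 and Pfkfb4 ranged from 0 to 7.07 RPKM, and none was called. Pfkfb4 rested on 19 and 119 reads in control cells, against 302 and 570 with VavCre.

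The abundant enzymes from aldolase to pyruvate kinase were not called on either scale. Aldoa, which codes for aldolase A, was read at 233 and 176 RPKM in control cells and at 200 and 231 RPKM with VavCre. It overlapped on the deposited scale (log2 difference 0.09 ± 0.30, adjusted p = 0.874 in limma). Pkm, the pyruvate kinase gene, measured 135 and 156 RPKM in control cells, against 191 and 217 RPKM in VavCre cells, with no overlap on the deposited scale. Its log2 difference of 0.49 ± 0.27 (adjusted p = 0.280 in limma) turned to −0.095 after scaling. Tpi1, the triose phosphate isomerase gene, was read at 52.3 and 39.7 RPKM in control cells and at 64.3 and 86.5 RPKM with VavCre (0.70 ± 0.30, adjusted p = 0.175 in limma). Eno1, the ubiquitous enolase, measured 49.7 and 43.0 RPKM in control cells, against 58.0 and 84.0 RPKM in VavCre cells (0.59 ± 0.30, adjusted p = 0.237 in limma). Aldoc, Eno2 and Eno3, isoenzymes best known from brain and muscle, stayed at or below 4.52 RPKM, and Eno2 rested on 10 and 11 reads in control cells, against 0 and 14 with VavCre.

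Gapdh, Pgk1 and Pgam1 were listed far below the enzymes on either side of them. Gapdh, a gene often taken as a reference, was read at 5.79 and 2.56 RPKM in control cells and at 9.38 and 6.26 RPKM with VavCre, Pgk1 at 1.63 and 2.10 against 3.29 and 2.92 RPKM, and Pgam1 at 0.955 and 1.38 against 1.71 and 2.25 RPKM. These genes have near-identical copies. Of the windows of 50 bases in the longest coding transcript, 82.5% for Gapdh, 68.0% for Pgk1 and 41.5% for Pgam1 occur unchanged in GENCODE transcripts of other genes, among them 215 pseudogenes for Gapdh. Eno1 (72.2%) also passes 40%, and its listed copy Eno1b stood at 1.57 to 2.85 RPKM. For Hk2, Hk3, Tkt, Pdk3, Pgls and 12 other genes the share was 0, for Gpi1 it was 25.3%, for Pkm 34.4% and for Ldha 16.6%. How reads with several positions were counted is not given in the sources used here, so the levels of Gapdh, Pgk1, Pgam1 and Eno1 are uncertain. None of these 4 genes was called.

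Ldha, the lactate dehydrogenase subunit that favours lactate formation, measured 181 and 186 RPKM in control cells, against 193 and 253 RPKM in VavCre cells. Both VavCre libraries lay above on the deposited scale and below after median-ratio scaling, with log2 differences of 0.27 ± 0.29 (adjusted p = 0.572) and −0.32 ± 0.22 (adjusted p = 0.452 in limma). Ldhb was read at 38.3 and 28.0 RPKM in control cells and at 50.1 and 56.5 RPKM with VavCre (0.68 ± 0.28, adjusted p = 0.166 in limma). Slc16a1, the gene of the monocarboxylate transporter MCT1, had the largest fitted rise among the 37 genes on the deposited scale and missed the threshold. It measured 1.56 and 2.41 RPKM in control cells, against 9.91 and 5.71 RPKM in VavCre cells (log2 difference 1.53 ± 0.38, adjusted p = 0.0587 in limma). After median-ratio scaling its log2 difference was 1.08 ± 0.41 (adjusted p = 0.213 in limma). Slc16a3, the gene of the lactate exporter MCT4, was read at 0.407 and 2.82 RPKM in control cells and at 5.12 and 3.72 RPKM with VavCre (1.21 ± 0.53, adjusted p = 0.181 in limma).

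Among the pyruvate dehydrogenase kinases, which hold pyruvate back from the mitochondria, Pdk3 (chrX:93764616-93832150) was called higher on the deposited scale. It stood at 3.36 and 3.12 RPKM in control and at 11.2 RPKM in both VavCre libraries, 3.46-fold apart. The log2 difference was 1.53 ± 0.29 (adjusted p = 0.0350 in limma) and 1.03 ± 0.26 after scaling (adjusted p = 0.113 in limma). Pdk2 measured 3.43 and 5.65 RPKM in control cells, against 8.69 and 16.3 RPKM in VavCre cells (1.25 ± 0.41, adjusted p = 0.103 in limma). Pdk1, the member known as a hypoxia-inducible gene, was read at 4.09 and 4.61 RPKM in control cells and at 4.94 and 6.46 RPKM with VavCre (0.32 ± 0.32, adjusted p = 0.541 in limma).

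In the pentose phosphate pathway, Pgls and Tkt were called higher on the deposited scale and the entry enzyme G6pdx was not. G6pdx, the glucose phosphate dehydrogenase gene on the X chromosome, measured 29.2 and 20.7 RPKM in control cells, against 19.7 and 27.4 RPKM in VavCre cells (log2 difference −0.08 ± 0.32, adjusted p = 0.894 in limma). Its genotypes overlapped on the deposited scale. Pgls (chr8:71592184-71596267), the lactonase of the second step, was read at 9.74 and 6.44 RPKM in control cells and at 23.1 and 21.5 RPKM with VavCre (1.38 ± 0.31, adjusted p = 0.0468 in limma). Pgd, the dehydrogenase after it, measured 19.0 and 34.6 RPKM in control cells, against 43.95 and 50.8 RPKM in VavCre cells (0.85 ± 0.35, adjusted p = 0.161 in limma). In the non-oxidative branch, Tkt (transketolase, chr14:30549131-30574724) was read at 27.3 and 34.8 RPKM in control cells and at 69.7 and 76.9 RPKM with VavCre (1.22 ± 0.27, adjusted p = 0.0464 in limma). Taldo1 (transaldolase) measured 69.6 and 82.8 RPKM in control cells, against 137 and 169 RPKM in VavCre cells and missed the threshold (1.00 ± 0.28, adjusted p = 0.0743 in limma). Rpe and Rpia, the pentose phosphate epimerase and isomerase genes, were low, at 3.38 and 4.86 RPKM in control cells, against 8.10 and 8.33 RPKM with VavCre for Rpe, and with only 2 and 40 reads in control for Rpia. After median-ratio scaling Pgls lay at 0.84 (adjusted p = 0.164), Tkt at 0.64 (adjusted p = 0.222) and Taldo1 at 0.41 (adjusted p = 0.369 in limma), none of them called, and G6pdx at −0.64 (adjusted p = 0.223 in limma). The calls of Gpi1, Pdk3, Pgls and Tkt all ended when any 1 library was left out and in limma-voom, and each gene was higher in VavCre in all 15 alternatives.

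**Figure D4:**
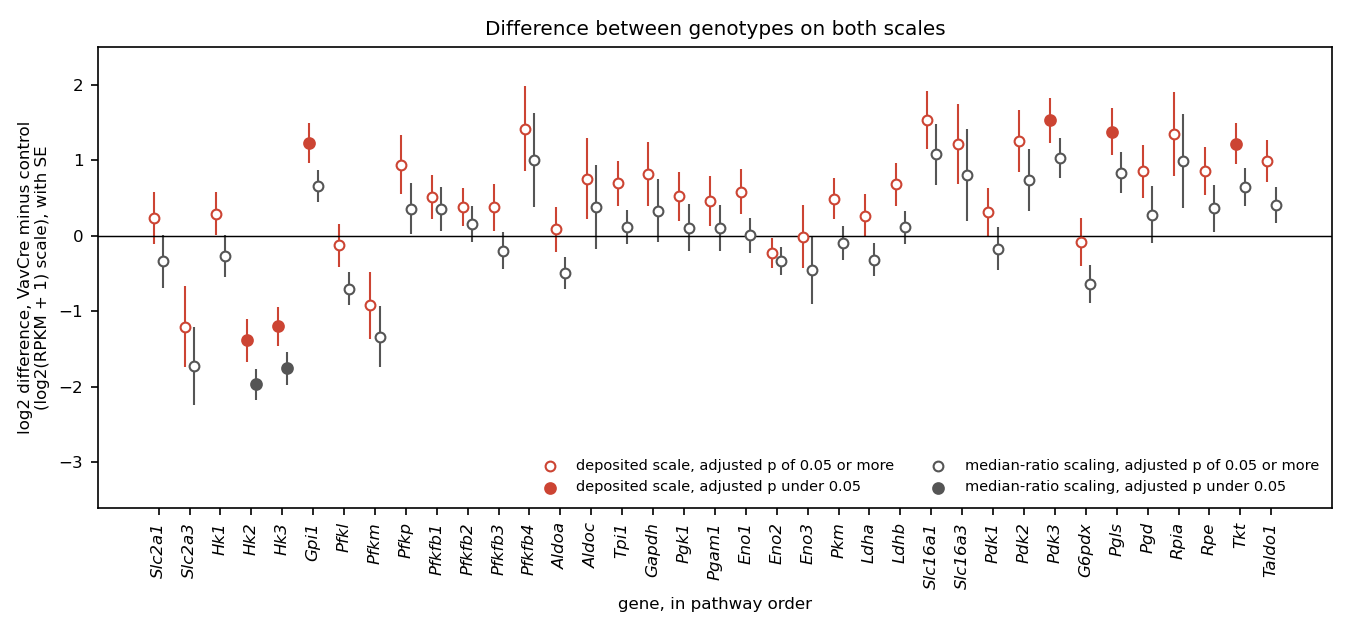
Log2 difference (VavCre minus control, on the log2(RPKM + 1) scale, with SE) of each of the 37 genes on the deposited scale (red) and after median-ratio scaling (grey); filled points have an adjusted p under 0.05 in limma. Hk2 and Hk3 are filled and below 0 on both scales, and Gpi1, Pdk3, Pgls and Tkt are filled on the deposited scale only.

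The promoter windows of the 4 genes called higher on the deposited scale are shown beside those of the hexokinases, with the same marks.
Gpi1 (chr7:34230287-34230586, minus strand): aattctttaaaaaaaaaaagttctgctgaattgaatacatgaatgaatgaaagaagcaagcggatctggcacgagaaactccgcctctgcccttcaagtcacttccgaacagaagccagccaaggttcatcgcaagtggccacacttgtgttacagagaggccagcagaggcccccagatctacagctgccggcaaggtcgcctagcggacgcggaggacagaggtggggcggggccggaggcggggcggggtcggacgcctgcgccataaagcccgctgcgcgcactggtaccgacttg
Pdk3 (chrX:93832101-93832400, minus strand): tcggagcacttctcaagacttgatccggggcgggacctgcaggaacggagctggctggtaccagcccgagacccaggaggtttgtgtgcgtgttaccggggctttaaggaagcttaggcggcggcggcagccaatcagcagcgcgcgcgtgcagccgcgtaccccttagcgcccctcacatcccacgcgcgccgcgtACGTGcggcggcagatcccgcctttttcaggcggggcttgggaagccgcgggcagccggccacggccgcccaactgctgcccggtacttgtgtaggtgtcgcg
Pgls (chr8:71591934-71592233, plus strand): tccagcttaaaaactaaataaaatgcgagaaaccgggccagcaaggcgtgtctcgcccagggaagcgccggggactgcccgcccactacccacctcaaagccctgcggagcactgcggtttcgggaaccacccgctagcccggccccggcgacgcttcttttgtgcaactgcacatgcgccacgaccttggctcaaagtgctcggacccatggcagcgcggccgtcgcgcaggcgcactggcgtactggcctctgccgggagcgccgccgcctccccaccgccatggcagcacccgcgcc
Tkt (chr14:30548881-30549180, plus strand): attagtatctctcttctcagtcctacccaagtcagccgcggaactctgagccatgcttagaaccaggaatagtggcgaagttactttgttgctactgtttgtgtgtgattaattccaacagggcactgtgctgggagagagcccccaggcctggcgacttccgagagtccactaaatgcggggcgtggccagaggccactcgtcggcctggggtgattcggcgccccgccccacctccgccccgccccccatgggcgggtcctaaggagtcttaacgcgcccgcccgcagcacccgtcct
Of these, only the Pdk3 window holds a match, ACGTG at 53 bases before the start. The windows of Gpi1, Pgls and Tkt hold none of the 3 motifs.

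The share of each isoenzyme in the summed RPKM of its family is a ratio within a library, so it does not move with the scaling between libraries. An exact permutation test on 2 against 2 libraries cannot give a two-sided p below 0.333, so the 24 shares, in 9 families, are described without a call. Hk2 made up 78.3% and 72.5% of hexokinase RPKM in control cells, against 60.4% and 63.8% with VavCre, and Hk1 6.97% and 11.2% against 25.5% and 22.3% (exact permutation p = 0.333 for each). Hk3 made up 14.7% and 16.3% against 14.1% and 13.9%. Slc2a1 made up 68.2% and 76.4% of the transporter pair in control cells, against 93.2% and 83.3% with VavCre. Pfkp made up 54.2% and 42.5% of phosphofructokinase in control cells, against 68.4% and 66.3% with VavCre, with Pfkl at 41.6% and 54.3% against 30.8% and 32.3%. Pdk1 made up 37.6% and 34.5% of the kinase family in control cells, against 19.9% and 19.0% with VavCre. Ldha made up 82.5% and 86.9% of lactate dehydrogenase in control cells, against 79.4% and 81.8% with VavCre. In each of these the genotypes did not overlap. Of all 24 shares 5 were higher and 9 lower with VavCre without overlap, each with p = 0.333 in the exact permutation test. The shares within a family depend on each other, and in a family of 2 genes 1 share falls by as much as the other rises. The shares of Aldoa, Eno1, Pdk2 and Slc16a1 overlapped, with Slc16a1 at 79.4% and 46.1% in control cells, against 65.9% and 60.5% with VavCre. Shares were also taken from reads not divided by gene length for Slc2a1, Hk2, Pfkp, Pfkfb3, Aldoa, Eno1, Ldha, Slc16a1 and Pdk3. The shift of each of these shares then moved by less than the replicate spread (1 SD). The shares of Hk1, Pfkl and Pdk1 were not checked in this way.

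**Figure D5:**
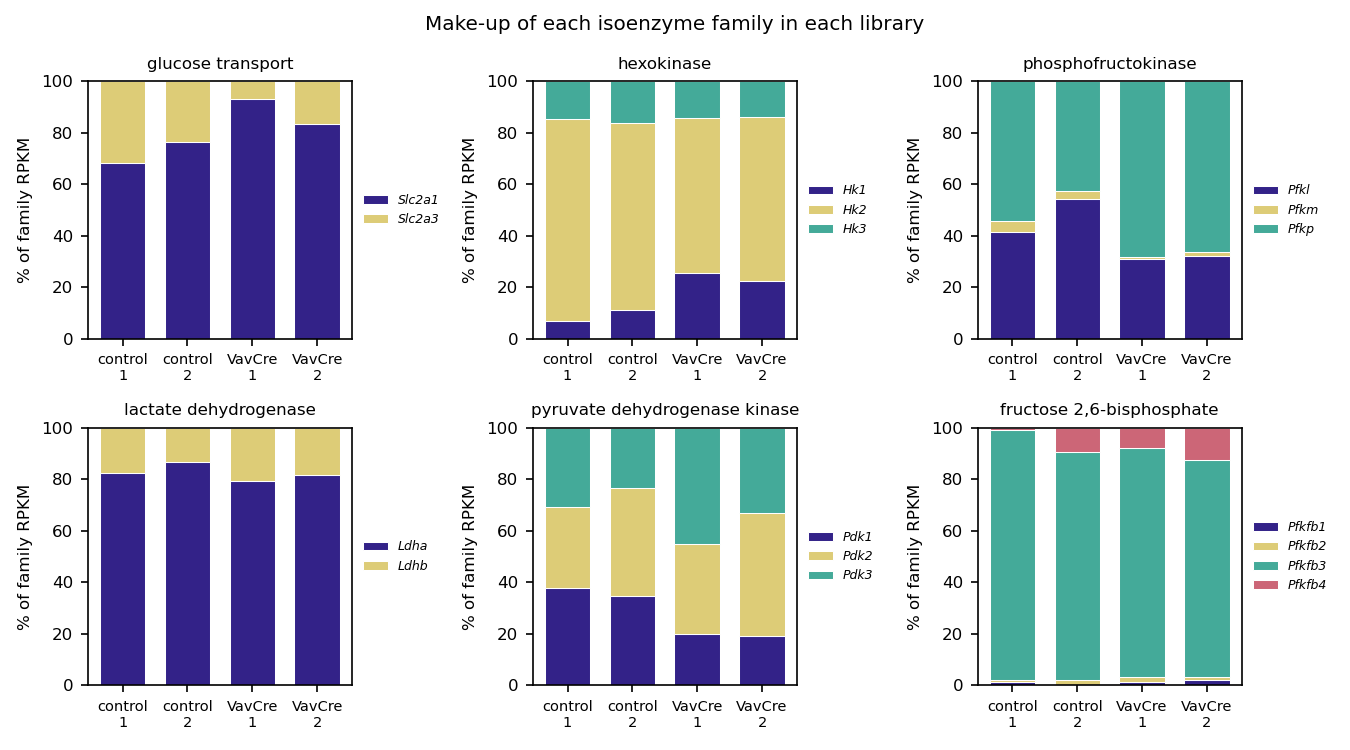
Share (%) of each isoenzyme gene in the summed RPKM of its family, in each of the 4 libraries, for 6 families. Hk1 takes a larger and Hk2 a smaller part of hexokinase in both VavCre libraries, and Pdk1 a smaller part of the pyruvate dehydrogenase kinases.

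Known regulators of glycolysis were read from a fixed list of 20 genes, of which 3 were called higher and 1 lower on the deposited scale. Of all tested genes 8.33% were called higher and 0.688% lower. Epas1, which codes for a hypoxia-inducible factor subunit, fell from 51.7 and 63.9 RPKM in control to 1.87 and 8.84 RPKM in VavCre libraries (log2 difference −3.46 ± 0.59, adjusted p = 0.0319 in limma). Mlxipl, the gene of the glucose-sensing factor ChREBP, rose from 4.45 and 4.28 to 28.1 and 35.8 RPKM (2.61 ± 0.29, adjusted p = 0.0141) and passed after scaling too (2.08, adjusted p = 0.0456 in limma). Txnip, a ChREBP target that restrains glucose uptake, rose from 18.5 and 21.2 to 82.8 and 93.2 RPKM (2.09, adjusted p = 0.0175), and Myc from 4.67 and 16.6 to 67.3 and 80.2 RPKM (2.90 ± 0.55, adjusted p = 0.0357 in limma). Epas1 (adjusted p = 0.0570), Txnip (adjusted p = 0.0575) and Myc (adjusted p = 0.117 in limma) did not pass after scaling. Hif1a was read at 20.5 and 16.4 RPKM in control cells and at 47.4 and 19.6 RPKM with VavCre (0.71, adjusted p = 0.327 in limma). Of 17 tested hypoxia target genes outside glycolysis, Car9 (2.67, adjusted p = 0.0216) and Ddit4 (1.45, adjusted p = 0.0288 in limma) were called higher and none lower, beside the same 8.33% and 0.688% of all tested genes. The median of these 17 genes was 0.08 where that of all genes was 0.43. With any 1 library left out, at most 1 of the 98 tested genes of these and 5 other pathway lists was called. The B cell and epithelial markers were higher in the same VavCre libraries, and their part in these values was not tested.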

How the data were processed

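LTi cell RNA was isolated with miRNeasy Micro columns and turned into full-length cDNA libraries by Smart-seq2, without molecular identifiers, per the labels' protocols. Subread, featureCounts and build mm10 are named in the submitters' processing notes, without versions. What the authors deposited is log2(RPKM + 1) plus 0.0001 per gene, as worked out from the values, each library scaled to its own total. Symbols were matched by Entrez identifier to RefSeq (25275 of 27179). Library totals and whole reads were recovered from the values (99.99% of genes with reads whole within 0.001 reads); a gene's reads are the likeliest whole numbers and can be off by a common factor. They served for depth, filter and scaling. A floor of 3 reads was 0.123 to 0.237 CPM, covering counting error only.

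Genes with at least 0.5226 CPM in 2 libraries and 15 reads in total were tested with limma 3.58.1 (R 4.3.3; trend, robust) on log2(RPKM + 1), two-sided. A fold change on this scale understates that of low genes. Recovery and test were tested on simulated data. The alternatives were median-ratio scaling, limma-voom on recovered counts (alone and with that scaling), no filter, a pseudocount of 0.1, a replicate block and leaving out each library. Every member is accounted for, with values per library for called genes, the leading isoenzyme and each step served by 1 gene; other pathway genes were named if called, at most 4 per list by adjusted p, and Hif1a and Eno1b were added with their values known. Some genes that meet this rule are not reported here. The members and lists were chosen with earlier results of these data known. Python 3.11.15, pandas 2.3.3 and matplotlib 3.10.9 were used.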

Additional observations from a re-analysis of the deposited data

How the results depend on the processing

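Read per alternative as members called higher and lower, then all genes, then other pathway genes, with the members' median log2 difference, median-ratio scaling gave 0 and 2, 87 and 62, 1 and 0, median 0.11. limma-voom gave 0 and 0, 219 and 47, 4 and 0, median 0.74, and limma-voom with median-ratio scaling 0 and 2, 30 and 65, 1 and 0, median 0.16. A pseudocount of 0.1 gave 1 and 1, 778 and 72, 9 and 1, median 0.71. Without the filter, limma called 0 and 0 in every set, while 10 members and 4336 of the 19047 genes then tested had an unadjusted p under 0.05. The members' median stayed at 0.52, and that of all genes fell from 0.43 to 0.28, which put the members 0.24 above it. The replicate block, on numbers the labels share between genotypes, gave 0 and 0, 981 and 77, 12 and 2, median 0.52, and with median-ratio scaling 0 and 0, 13 and 5, 0 and 0, median 0.11. Same-numbered libraries did not deviate together (correlation −0.02 over 14234 genes). At an unadjusted p under 0.05, limma-voom found 17 members and 4017 of all 14234 tested genes. The block found 12 members and 4011 of all genes, and the block with scaling 8 members and 2945 of all genes. With 1 library left out, on either scale, limma called 0 and 0 members and 0 to 27 and 0 to 7 of all genes. Of the other pathway genes it called 0 to 1 and 0. The members' median log2 difference in these fits ran from −0.023 to 0.59, and from −0.062 to 0.11 relative to all genes.

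None of the 6 called members turned in any of the 15 alternatives. With 1 library left out their direction was fixed in advance, since none of the 6 overlapped between genotypes on either scale. Slc2a3, Pfkm, Pfkfb1, Pfkfb4, Eno2, Slc16a1, Pdk2, Rpia, Rpe and Taldo1, which were not called, did not turn either. Under median-ratio scaling, with or without the block, Slc2a1 turned to −0.34, Hk1 to −0.27, Pfkfb3 to −0.20, Aldoa to −0.50, Pkm to −0.095, Ldha to −0.32 and Pdk1 to −0.17, and under limma-voom with that scaling to −0.33, −0.27, −0.21, −0.50, −0.093, −0.32 and −0.19. Eno3 turned to 0.039 with limma-voom and 0.0097 with a pseudocount of 0.1. With 1 library left out, on either scale, the log2 difference ran from −0.76 to 0.58 for Slc2a1, −0.55 to 0.50 for Hk1, −0.82 to 0.062 for Pfkl, −0.071 to 1.45 for Pfkp, −0.0052 to 0.50 for Pfkfb2, −0.43 to 0.69 for Pfkfb3, −0.62 to 0.29 for Aldoa, −0.17 to 1.37 for Aldoc, −0.024 to 0.91 for Tpi1, −0.084 to 1.29 for Gapdh, −0.078 to 0.64 for Pgk1, −0.099 to 0.60 for Pgam1, −0.19 to 0.85 for Eno1, −1.01 to 0.45 for Eno3, −0.28 to 0.59 for Pkm, −0.45 to 0.46 for Ldha, −0.034 to 0.90 for Ldhb, −0.023 to 1.93 for Slc16a3, −0.31 to 0.48 for Pdk1, −0.81 to 0.16 for G6pdx and −0.21 to 1.27 for Pgd. The cause of these turns was not tested. Depth limits Pfkfb1, Pfkfb2, Pfkfb4, Aldoc, Gapdh, Pgk1, Pgam1, Eno2, Eno3, Slc16a3 and Rpia, which had under 50 reads in at least 1 library.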

Other observations

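Other genes of sugar metabolism were read from fixed lists. Over all 7 lists, the regulators and hypoxia targets included, 14 of 98 tested genes were called higher and 1 lower, against 8.33% and 0.688% of all tested genes, and 1 (Mlxipl) was called higher after median-ratio scaling. Of 11 tested genes of gluconeogenesis and fructose use 5 were called higher. Fbp2, the muscle fructose bisphosphatase, rose from 5.57 and 3.66 RPKM in control to 25.2 and 38.8 RPKM in VavCre libraries (log2 difference 2.55, adjusted p = 0.0196 in limma). Pklr, the pyruvate kinase of liver and red cells, was called at low levels, at most 4.06 RPKM (1.71, adjusted p = 0.0350 in limma). The epithelial markers were higher in the same libraries, and their part in these values was not tested.

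In the list of other pentose phosphate and NADPH genes 3 of 11 tested genes were called higher, where 8.33% of all tested genes were. Idh2, the mitochondrial isocitrate dehydrogenase, rose from 11.7 and 14.0 to 49.6 and 38.2 RPKM (1.69, adjusted p = 0.0278), Idh1 from 1.03 and 1.10 to 4.44 and 7.85 RPKM (1.75, adjusted p = 0.0425) and Gsr, the glutathione reductase, which uses NADPH, from 0.864 and 2.36 to 8.97 and 9.68 RPKM (2.04, adjusted p = 0.0348 in limma). None of the 11 genes of pyruvate entry to mitochondria and none of the 11 glycogen genes was called by limma, with list medians of 0.35 and 0.56 beside 0.43 for all genes. Of 17 further transport and glycolysis genes only Gpd1l was called (1.66, adjusted p = 0.0410 in limma). After median-ratio scaling none of the genes in this section other than Mlxipl passed.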
